A study of Mus musculus with 6 samples.

Results

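The stromal and macrophage matrix metalloproteinases examined here are 9 genes, Mmp2, Mmp3, Mmp10, Mmp11, Mmp12, Mmp14, Mmp16, Mmp19 and Mmp23, measured in tibial cartilage of mice with and without a chondrocyte-directed deletion of Adam10. They were chosen by name, and every non-control probe whose RefSeq accession belongs to one of them was taken, which gave 11 of the 55681 probes and 9 of the 36983 gene or accession names on the array. Mmp11 and Mmp12 had 2 probes each and the other 7 genes had 1. The study compared 3 C57BL/6 mice that carry floxed Adam10 alleles (ADAM10 flox/flox) together with Cre recombinase under the Col2a1 promoter, called mutants here, with 3 C57BL/6 mice labelled control. The Col2a1 promoter is active in cells of the chondrocyte lineage, and which cells of the sampled tissue lost Adam10 was not measured. The labels do not give the age or sex of the mice, or say which alleles the controls carry. Each array holds the RNA of 1 mouse.

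Matrix metalloproteinases are zinc-dependent enzymes that cut collagens, proteoglycans and other proteins outside the cell. Most are made as inactive precursors held shut by a propeptide, and they are checked by the tissue inhibitors of metalloproteinases. In growing bone they take part in removing calcified cartilage, opening the way for vessels and reshaping the perichondrium. The genes described here are best known from fibroblast-like stromal cells (Mmp2, Mmp3, Mmp11, Mmp14) and from macrophages (Mmp12), in contrast to the collagenases and gelatinase typical of hypertrophic chondrocytes, osteoclasts and neutrophils.

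Of the members, Mmp3, Mmp10 and Mmp12 lie in one row of metalloproteinase genes on mouse chromosome 9, in the order Mmp13, Mmp12, Mmp1b, Mmp3, Mmp1a, Mmp10, Mmp8, Mmp27, Mmp20 and Mmp7 among protein-coding genes of GRCm38.p6. RefSeq promoter sequences of that build were matched for 6 of the 9 members. Stretches of 250 bases upstream of the annotated start are shown for the chromosome 9 members, whose promoters share a motif, and for Mmp14 as a member without it. They lie at chr9:7445572-7445821 for Mmp3, chr9:7502092-7502341 for Mmp10, chr9:7347124-7347373 for Mmp12 (1 of its 2 annotated starts) and chr14:54431348-54431597 for Mmp14, all on the plus strand. Capitals mark TGANTCA, the letters bound by the transcription factor AP-1, searched on both strands.
Mmp3: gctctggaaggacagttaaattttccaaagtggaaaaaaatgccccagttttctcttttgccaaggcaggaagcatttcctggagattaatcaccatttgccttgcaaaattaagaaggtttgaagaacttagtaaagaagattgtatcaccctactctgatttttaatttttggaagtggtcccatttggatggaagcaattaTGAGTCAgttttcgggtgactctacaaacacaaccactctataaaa
Mmp10: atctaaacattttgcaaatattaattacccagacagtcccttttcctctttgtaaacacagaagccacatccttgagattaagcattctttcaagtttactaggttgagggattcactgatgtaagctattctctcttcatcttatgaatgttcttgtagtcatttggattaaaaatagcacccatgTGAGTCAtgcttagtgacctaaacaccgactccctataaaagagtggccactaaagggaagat
Mmp12: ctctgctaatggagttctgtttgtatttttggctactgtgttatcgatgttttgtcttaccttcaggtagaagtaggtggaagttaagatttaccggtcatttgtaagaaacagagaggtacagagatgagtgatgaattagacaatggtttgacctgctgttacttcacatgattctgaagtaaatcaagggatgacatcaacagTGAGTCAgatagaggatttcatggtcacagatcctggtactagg
Mmp14: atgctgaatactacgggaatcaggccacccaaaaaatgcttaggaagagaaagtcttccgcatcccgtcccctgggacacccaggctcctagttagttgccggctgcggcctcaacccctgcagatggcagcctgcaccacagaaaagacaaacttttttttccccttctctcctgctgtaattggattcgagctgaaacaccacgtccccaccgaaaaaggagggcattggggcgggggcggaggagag
The motif occurred once upstream of Mmp3, with its first base 46 bases before the start, once upstream of Mmp10 at 63 bases, and once upstream of Mmp12 at 44 bases. In each of these 3 promoters it read TGAGTCA. It was in neither the other Mmp12 stretch nor those of Mmp11, Mmp14 and Mmp23. Of all 32851 promoter stretches of this length, 6.75% held it. TATAAA, the letters of the TATA box, was upstream of Mmp3 and Mmp10 and in 12.4% of all stretches. Its first base lay 7 bases before the annotated start of Mmp3 and 29 bases before that of Mmp10. AGGAAG, the letters of the PEA3 element, whose matches overlapped none of the other 2 motifs, was found for Mmp3, Mmp14 and the Mmp12 stretch that is not shown, and in 29.5% of all stretches. The stretches of Mmp3 and Mmp10 were 37.6% and 37.2% G or C, against 55.2% for Mmp14, 63.2% for Mmp11 and a median of 52.4% over all. These are matches of letters only.

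All 6 arrays lay on 1 slide and came from 1 scan. Well above background were 62.4% to 65.4% of the spots on an array, and the number of arrays limits the precision. Values are log2 signals relative to the 75th percentile of the array, and differences are mutant minus control. Adam10 itself read 0.15, -1.70 and 0.31 on mutants 1 to 3, against 1.61, 1.58 and 1.21 on controls 1 to 3. Every mutant was thus below every control. The difference of -1.88 (SE 0.53) had an adjusted p of 0.987 in the limma fit across all features and was -1.24 without mutant 2. Mutant 2 and control 1 stood at opposite ends of the first principal component (71.0 and -55.3, with the other 4 arrays between -14.0 and 15.2), and member values are given with and without them. The slide's first row held mutant 1 and the 3 controls, while mutants 2 and 3 were on the other row. Signal of Y-linked Ddx3y exceeded that of Xist on 4 arrays, and mutant 3 and control 1 had more Xist. The lesser signal was not equally low: Xist read -3.66 on mutant 1, against -7.32, -7.23 and -7.23 on mutant 2, control 2 and control 3. Ddx3y read -4.57 on mutant 3, against -7.34 on control 1. The cause was not tested. All 12 chondrocyte markers were measured, with a median difference of 0.29 and 0 at an unadjusted p below 0.05. Of them 11 had a difference above 0, where 60% of all features did. The exception was Col2a1, the main cartilage collagen, which read 9.97 ± 0.12 in mutants and 10.03 ± 0.07 in controls (SD, n = 3 each).

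Of the 9 genes, 7 were well above background on every array and 2, Mmp12 and Mmp19, on none. No member passed the test of mutants against controls. Of the 7 measured genes, 6 had a difference below 0 and 1, Mmp2, a difference above 0, where 40% of the 25494 tested features lay below 0. The median of the 7 differences was -0.18, beside a median of 0.043 over all features, and they ran from -0.62 for Mmp3 to 0.18 for Mmp2. In the limma fit across all features 0 of 7 members had an adjusted p below 0.05 (background 0% lower and 0% higher), and the adjusted p was 0.987 for each of the 7. At an unadjusted p below 0.05 there were also 0 of 7, where 1.89% of features were lower and 1.55% higher at that level. The groups overlapped for all 7 members (background 3.75% lower and 5.19% higher without overlap). An exact permutation test of any single gene cannot give a p below 0.1 with 3 arrays against 3.

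The count of members below 0 rested on mutant 2. Without that array 3 of the 7 differences were below 0 and their median was 0.042. Without both control 1 and mutant 2 the count was 2 of 7 and the median 0.13. Mutant 2 was the lowest of the 6 arrays for 4 of the 7 members, where it was lowest for 18.7% of all features, and the highest for 1, where it was highest for 38% of features. The SD between mutants was larger than that between controls for 6 of 7 members, beside 53.1% of all features. On the first row of the slide, which holds 1 mutant, 4 of 7 differences were below 0, with a median of -0.012. The 4 arrays with more Ddx3y than Xist include mutant 2 and leave out mutant 3 and control 1. On them 6 of 7 were below 0, with a median of -0.18.

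**Figure D1:**
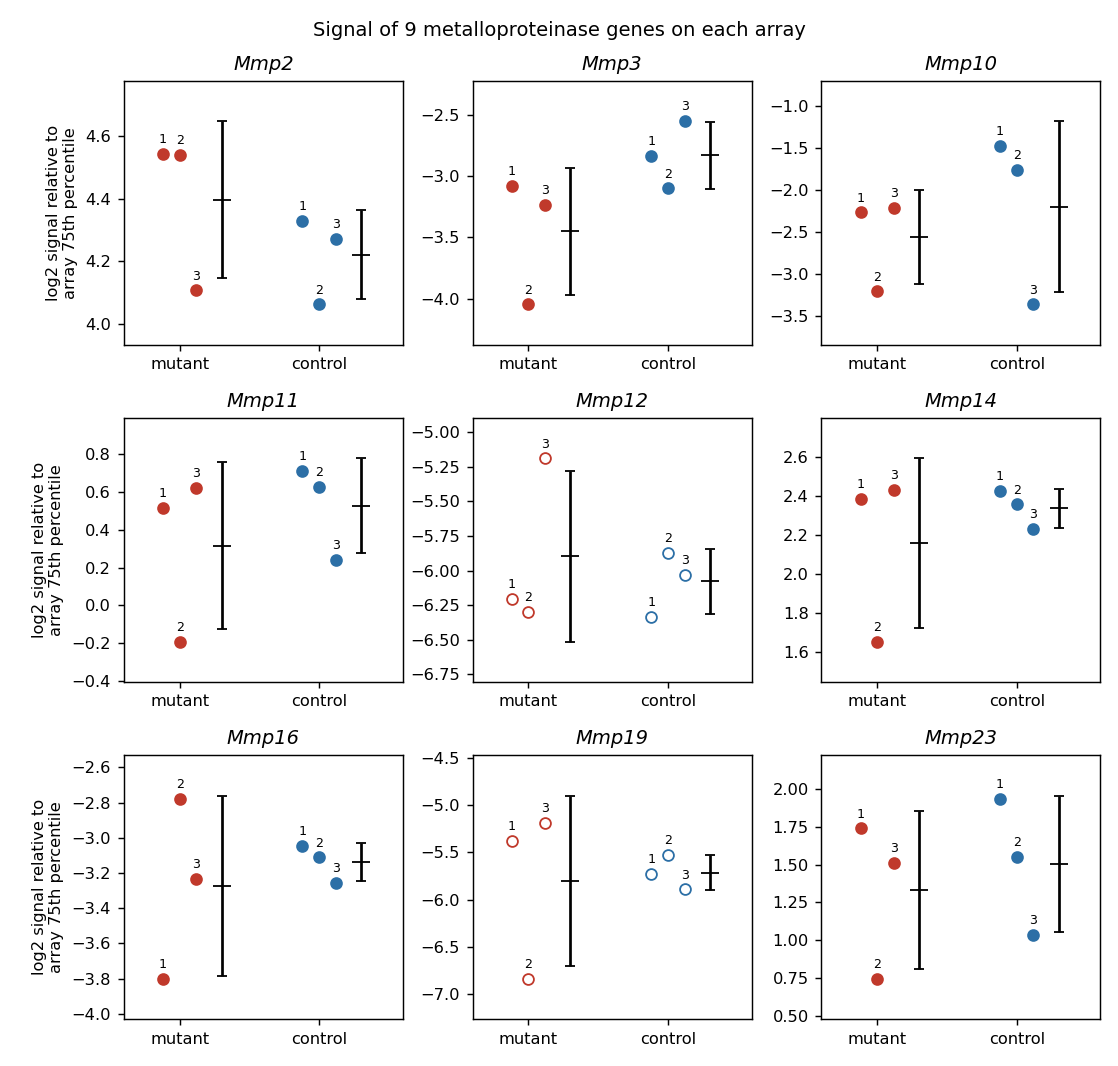
Log2 signal relative to the array's 75th percentile for each of the 9 genes, with its own axis per panel, in mutants and in controls. Points are arrays numbered by mouse, filled where the probe was well above background, and bars give the mean and SD of 3 arrays. Mutant 2 is the lowest array for Mmp3, Mmp11, Mmp14 and Mmp23, and all Mmp12 and Mmp19 points are open.

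Mmp3, or stromelysin, cuts proteoglycans, fibronectin and other matrix proteins and can activate other metalloproteinases. Its probe (A_51_P255699, NM_010809) read -3.08, -4.05 and -3.23 on mutants 1 to 3, against -2.83, -3.10 and -2.55 on controls 1 to 3. The groups touched only where mutant 1 lay 1 place above control 2, and mutant 2 was far below the other 5 arrays. Mmp3 had the widest gap of the 7 measured members, at -0.62 (SE 0.29, 95% interval -1.31 to 0.07), or 1.54-fold lower in mutants. Its unadjusted p in limma was 0.0700. Of all features, 3.82% had a difference as far below 0 or further. The difference was -0.33 without mutant 2, -0.25 among first-row arrays and -0.19 with array weights. With normexp background correction, which adds an offset of 50 intensity units to every signal, it was -0.39. Without control 1 it was -0.63, and without both control 1 and mutant 2 it was -0.33. It stayed below 0 in each of the 19 alternative settings. Those that changed only the filter, probe choice or replicate block could not move the difference of this single-probe gene. The processed signal was dim, between 36.2 and 74.8 intensity units in mutants and between 64.9 and 87.1 in controls, while the dimmest probes well above background had 14.6 to 15.3 units, and 16.0 on mutant 2.

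Mmp10, a close relative of Mmp3 with a similar range of substrates, was dominated by the spread within the groups. It read -2.27, -3.21 and -2.22 on mutants 1 to 3, against -1.48, -1.76 and -3.36 on controls 1 to 3. Control 3 was the lowest array of all, next to mutant 2, while the other 2 controls were the highest. The difference was -0.37 (SE 0.54, 95% interval -1.66 to 0.93). Without control 1 it was -0.0038, without control 2 it was -0.14, and without mutant 2 it was -0.043. Among first-row arrays it was -0.068, on the arrays with more Ddx3y than Xist -0.18, and without control 3 it was -0.95. It turned to 0.32 without both control 1 and mutant 2.

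Mmp12, the elastase of macrophages, was not well above background on any of the 6 arrays with either of its 2 probes (A_55_P2024803 and A_55_P2105783, NM_008605). The brighter probe gave 8.56, 7.59 and 14.0 intensity units on mutants 1 to 3, against 7.35, 9.48 and 7.83 on controls 1 to 3. Each lies below the dimmest signal called well above background on its array. No fold is given for this gene. Macrophage transcripts were nonetheless present in the tissue: 13 of 16 macrophage markers were measured, among them Lyz2, Marco and Spic, while Cd163 and Vsig4 did not pass the filter and Cd68 had no matched probe.

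Mmp2, the gelatinase of stromal cells, which cuts denatured collagen and type IV collagen, was the only measured member with a higher mean in mutants. Its probe (A_51_P341736, NM_008610) read 4.54, 4.54 and 4.11 on mutants 1 to 3, against 4.33, 4.06 and 4.27 on controls 1 to 3. Mutants 1 and 2 were the highest arrays, whereas mutant 3 lay among the controls. Mmp2 differed by 0.18 (SE 0.17, 95% interval -0.23 to 0.58), less than the spread between arrays. With single arrays left out, its difference ran from 0.10 without control 2 to 0.32 without mutant 3. The difference was above 0 in all 19 alternative settings. Settings that changed only the filter, probe choice or replicate block could not move it. Without mutant 1 and without mutant 2 it was 0.10 as well, without control 1 it was 0.23, and without both control 1 and mutant 2 it was 0.16.

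Mmp14 is a membrane-anchored collagenase that activates the Mmp2 precursor at the cell surface, together with Timp2. It read 2.39, 1.66 and 2.43 on mutants 1 to 3, against 2.43, 2.36 and 2.23 on controls 1 to 3. Mutant 2 was alone at the low end, and mutants 1 and 3 lay within or just above the range of the controls. The difference was -0.18 (SE 0.23, 95% interval -0.73 to 0.37), or 0.071 without mutant 2, 0.049 among first-row arrays, 0.014 with array weights and 0.11 without both control 1 and mutant 2. It was -0.29 without mutant 1, -0.32 without mutant 3 and -0.14 without control 1.

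Mmp16, another membrane-anchored member that can activate the Mmp2 precursor, was spread widely among mutants and little among controls. It read -3.80, -2.78 and -3.23 on mutants 1 to 3, against -3.04, -3.11 and -3.26 on controls 1 to 3. Mutant 1 was the lowest array and mutant 2 the highest, the reverse of their order for Mmp3, Mmp10, Mmp11, Mmp14 and Mmp23. The difference was -0.13 (SE 0.26, 95% interval -0.76 to 0.49), turned to 0.13 without mutant 1, and was -0.38 without mutant 2, -0.086 without control 1 and -0.33 without both. On the first row it was -0.66, and with array weights -0.51.

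Mmp11, a stromelysin-like enzyme of stromal cells with weak activity on classical matrix proteins, was measured by 2 probes that shared the lowest mutant and the lowest control. The brighter one (A_55_P1989698) read 0.52, -0.19 and 0.62 on mutants 1 to 3, against 0.71, 0.63 and 0.24 on controls 1 to 3. The other (A_66_P105075) read -0.48, -1.32 and -0.72 on mutants 1 to 3, against -0.50, -0.52 and -0.95 on controls 1 to 3. With both, these were mutant 2, the lowest of all 6 arrays, and control 3. The difference was -0.21 (SE 0.25, 95% interval -0.82 to 0.40) by the first probe and -0.18 (SE 0.25) by the second. By the first it turned to 0.042 without mutant 2 and 0.13 without both control 1 and mutant 2, was -0.12 without control 1, -0.35 without control 3 and -0.36 without mutant 3, and was -0.012 on the first row and -0.063 with array weights.

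Mmp23, a metalloproteinase with an unusual membrane-anchoring propeptide, read 1.74, 0.74 and 1.51 on mutants 1 to 3, against 1.93, 1.55 and 1.03 on controls 1 to 3. The lowest mutant and the lowest control were again mutant 2 and control 3. The difference was -0.17 (SE 0.33, 95% interval -0.97 to 0.62). Its sign was not stable: it turned to 0.12 without mutant 2, 0.040 without control 1, 0.33 without both control 1 and mutant 2, 0.23 on the first row and 0.17 with array weights. It was -0.38 without mutant 1, -0.26 without mutant 3 and -0.41 without control 3, and -0.050 on the arrays with more Ddx3y than Xist.

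Mmp19, a secreted enzyme that cuts basement membrane proteins, was likewise above background on 0 of 6 arrays. Its probe gave 15.2, 5.23 and 14.0 intensity units on mutants 1 to 3, against 11.2, 12.1 and 8.61 on controls 1 to 3. Apart from mutant 1, these readings lie below the dimmest signal called well above background on their array, and no fold is given.

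**Figure D2:**
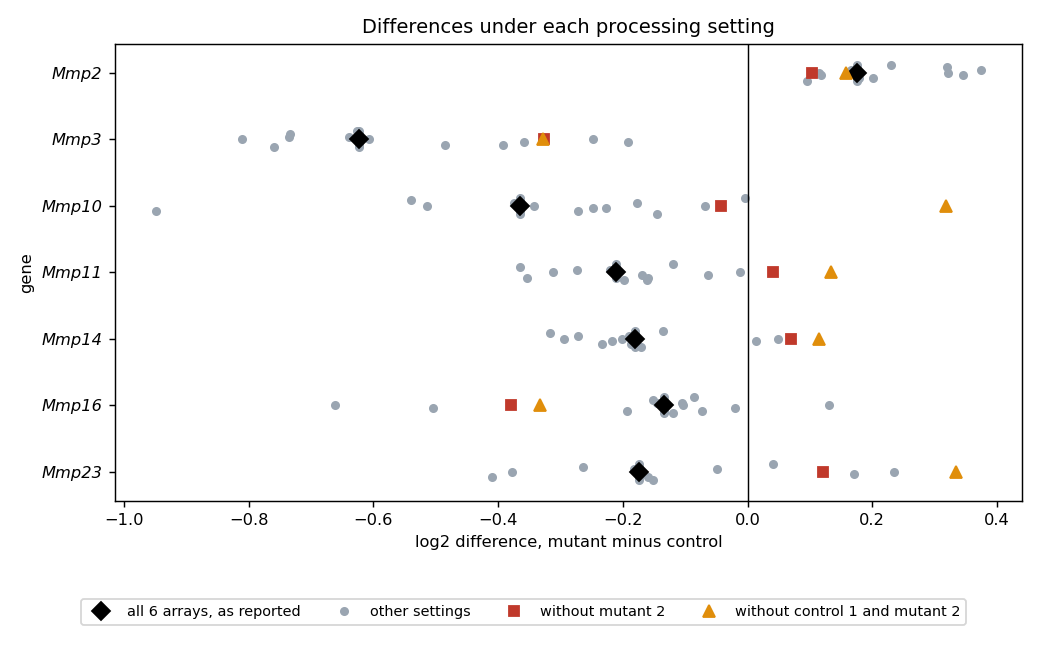
Difference in log2 signal (mutant minus control) of the 7 measured genes with all 6 arrays and under each of the 19 alternative settings, with a small vertical offset for the other settings. Without mutant 2 the differences of Mmp11, Mmp14 and Mmp23 lie above 0, while Mmp3 stays below 0 and Mmp2 above 0 throughout.

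Markers of other cell types also differed between the arrays. In whole tissue, fewer cells of a type and less RNA per cell cannot be told apart. A list score is the mean over the measured markers of log2 signal minus each gene's mean over the 6 arrays. Mutant 2 had the lowest score for 7 of 10 marker lists and the highest for 1, the chondrocyte markers. Of all features, 40% had a difference below 0, and 1.89% were lower at an unadjusted p below 0.05 in limma. Macrophage markers scored between -1.32 and 0.04 in mutants and between 0.29 and 0.60 in controls, with 11 of 13 genes below 0, 4 of them at an unadjusted p below 0.05 (Spic, Marco, Lyz2 and Fcgr1), 0 at an adjusted one, and a median difference of -1.01. Osteoclast markers scored between -1.65 and 0.02 in mutants and between 0.46 and 0.80 in controls, with 12 of 12 genes below 0, 4 of them at an unadjusted p below 0.05 and 0 at an adjusted one, and a median of -1.22. Endothelial markers scored between -1.12 and 0.11 in mutants and between 0.09 and 0.46 in controls. All of these 3 ranges had mutant 2 at the low end. Calcr, 1 of the osteoclast markers, was well above background on 1 mutant and 2 controls.

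Neutrophil markers had the widest median difference of the marker lists, -1.64, and another order of arrays. Of 10 measured, 9 were below 0, where 40% of all features were. Of the 9 markers, 1, Mmp8, had an unadjusted p below 0.05 and 0 an adjusted one. Their score was -1.37, -0.56 and -0.23 on mutants 1 to 3, against 1.86, 0.99 and -0.68 on controls 1 to 3. The lowest array was mutant 1, and control 3 lay below mutants 2 and 3.

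Fibroblast and perichondrial markers belong to the cells best known for Mmp2, Mmp11 and Mmp14. They had 11 of 12 differences under 0, where 40% of all features were. Their median was -0.13, with 0 genes at an unadjusted p below 0.05. Their score was 0.32, -0.79 and 0.22 on mutants 1 to 3, against 0.69, -0.09 and -0.35 on controls 1 to 3. Mmp23 ordered the arrays in the same way, except that control 2 stood above mutant 3. Skeletal muscle markers varied most, at 1.31, -2.45 and 0.55 on mutants 1 to 3, against 2.25, -0.88 and -0.79 on controls 1 to 3. Chondrocyte markers went the other way, at -0.01, 0.39 and 0.00 on mutants 1 to 3, against -0.35, -0.01 and -0.01 on controls 1 to 3. The part of these cell types in the member values was not tested.

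**Figure D3:**
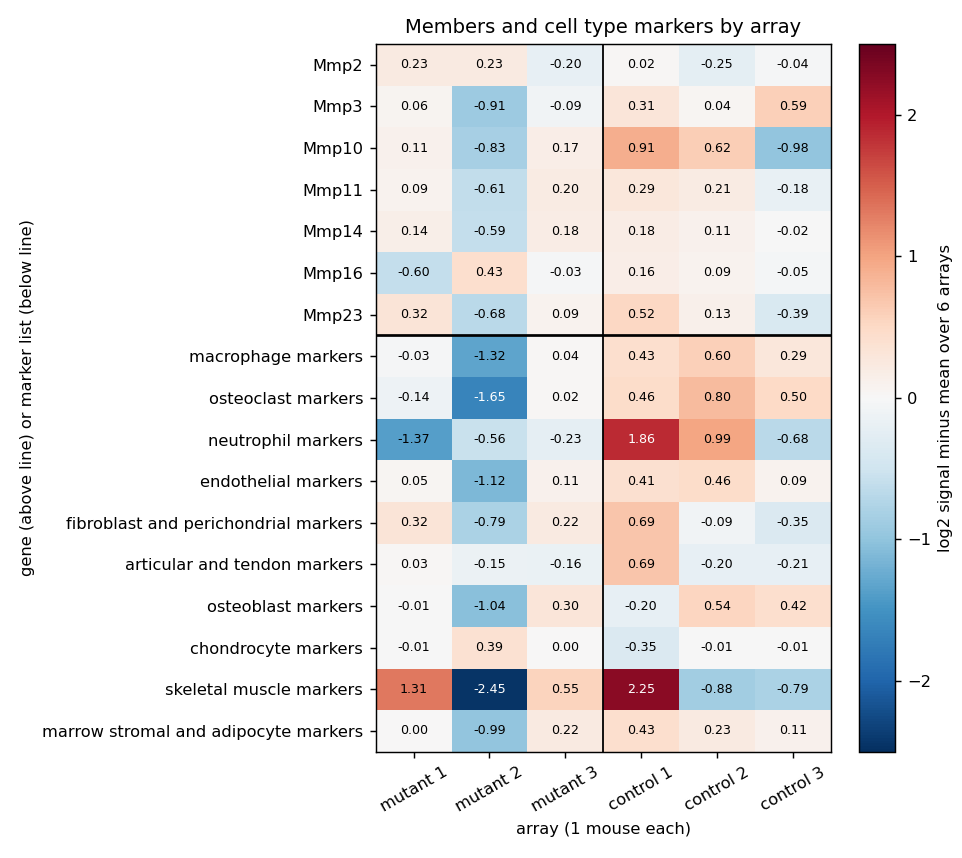
Log2 signal minus the mean over the 6 arrays for the 7 measured genes (above the line) and mean of the same quantity for 10 marker lists (below the line), with mutants on the left and controls on the right. Mutant 2 is low for most members and marker lists, with Mmp2, Mmp16 and the chondrocyte markers high on it.

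The other metalloproteinases, those of chondrocytes, osteoclasts and neutrophils among them, were read from the same fit. Of 14 listed, 13 had a matched probe and 6 were measured. All 6 were below 0, where 40% of all features were, with a median of -0.67. In limma 1 of the 6, Mmp8, had an unadjusted p below 0.05 and 0 an adjusted one. At that unadjusted level 1.89% of all features were lower. The groups did not overlap for 3, Mmp8, Mmp9 and Mmp24, where 3.75% of all features were lower without overlap. Mmp8, the collagenase of neutrophils, read -4.80, -4.40 and -3.59 on mutants 1 to 3, against -1.79, -2.76 and -0.15 on controls 1 to 3. Its difference was -2.70 (SE 0.67), with an adjusted p of 0.987 in limma. Mmp8 is itself 1 of the neutrophil markers, whose score was lowest among controls on control 3, the array on which Mmp8 was highest. The part of neutrophil transcripts in the Mmp8 value was not tested. Mmp9, the gelatinase of osteoclasts and neutrophils, read 3.22, 0.47 and 3.27 on mutants 1 to 3, against 3.43, 4.23 and 3.90 on controls 1 to 3, and differed by -1.54 (SE 0.76). Mmp13, the collagenase of hypertrophic chondrocytes and osteoblasts, overlapped between the groups and differed by -0.98 (SE 0.69). Mmp15 and Mmp17, which are membrane-anchored, differed by -0.36 and -0.28, and Mmp24, membrane-anchored as well, by -0.34. Mmp24 read -4.66, -4.55 and -4.56 on mutants 1 to 3, against -4.53, -4.43 and -3.80 on controls 1 to 3. Mutant 2 and control 1 were thus nearly level. Mmp1a, Mmp1b, Mmp7, Mmp20, Mmp21, Mmp25 and Mmp28 stood at background on all 6 arrays. No member differed as far as Mmp8, Mmp9 or Mmp13, and whether the 2 sets differ was not tested.

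Genes listed as inhibitors of metalloproteinases leaned to the other side of 0. Of 10 listed, 8 were measured and 7 were above 0, where 60% of all features were, with a median of 0.24 and 0 of 8 at an unadjusted p below 0.05. Their score was taken as for the marker lists. It read 0.03, 0.20 and 0.07 on mutants 1 to 3, against -0.24, -0.18 and 0.11 on controls 1 to 3. Control 3 lay above mutants 1 and 3, so the groups overlapped. One of the 7 was Pzp, a relative of alpha-2-macroglobulin, which was well above background on 3 mutants and 1 control. Its difference is therefore not given here, although it is plotted below. Timp1 averaged 4.72 ± 0.11 in mutants and 4.82 ± 0.11 in controls (SD, n = 3 each). Timp2, which inhibits metalloproteinases and also takes part in activating Mmp2, averaged 6.94 ± 0.29 in mutants and 6.92 ± 0.37 in controls (SD, n = 3 each). Timp3, the matrix-bound inhibitor, differed by 0.25 (SE 0.18), Timp4 by 0.23 (SE 0.34), and Reck, a membrane-anchored inhibitor of Mmp2, Mmp9 and Mmp14, by 0.25 (SE 0.22). A2m, the protease trap alpha-2-macroglobulin, differed by 0.49 (SE 0.34). Spock2, listed with Spock1 and Spock3, differed by 0.32 (SE 0.21), and whether it acts as an inhibitor was not tested.

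**Figure D4:**
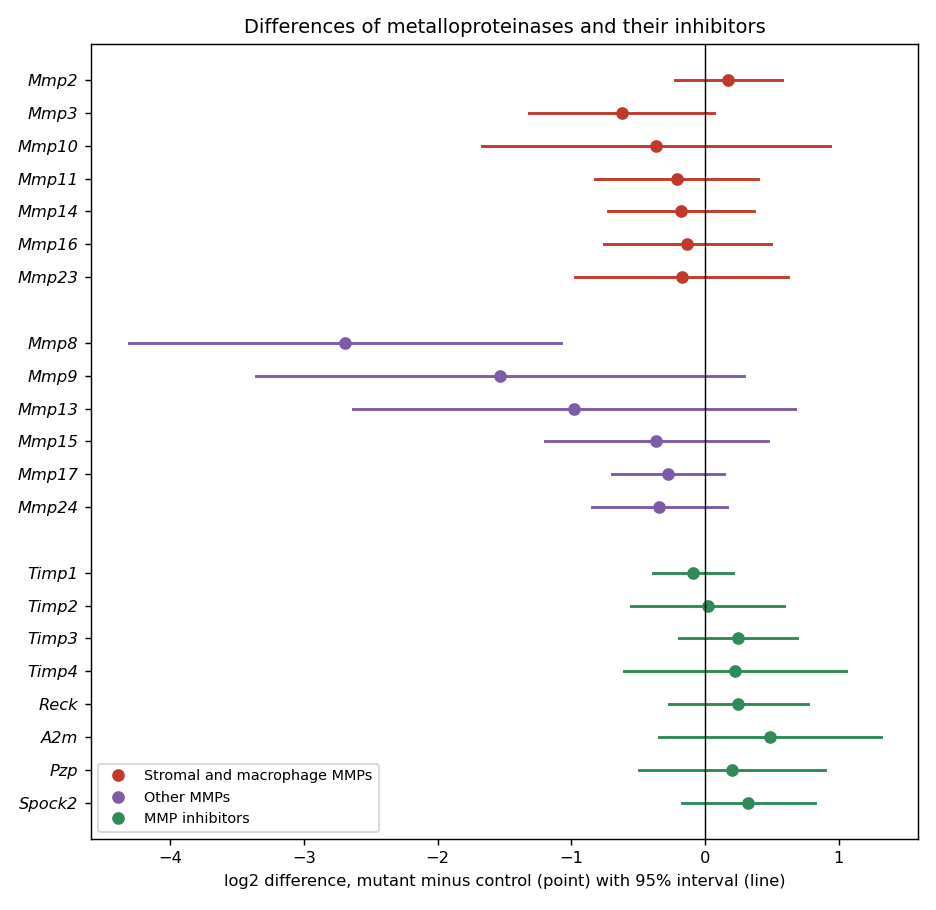
Difference in log2 signal (mutant minus control) with its 95% interval from the limma fit. Shown are the 7 measured stromal and macrophage metalloproteinases, 6 other metalloproteinases and 8 genes listed as inhibitors. All intervals of the 7 members include 0, and Mmp8 is the only gene plotted whose interval does not.

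Genes that activate the precursors and genes of the matrix they cut were also counted. Of 12 genes of the proprotein convertase and plasmin systems, 10 were measured, with 5 below 0, 5 above 0, a median of 0.02 and 0 at an unadjusted p below 0.05. Furin, which cuts the propeptide of Mmp11, Mmp14 and other members, averaged 4.10 ± 0.30 in mutants and 3.97 ± 0.06 in controls (SD, n = 3 each), and it was not among the 4 smallest p of its list, so it was chosen after its value was seen. Plau, urokinase, read -3.71, -5.70 and -3.64 on mutants 1 to 3, against -3.64, -2.92 and -3.49 on controls 1 to 3. It was not well above background on mutant 2, and mutant 3 and control 1 were nearly level. The protease inhibitor Serpine2 differed by -0.53 (SE 0.33), Klkb1 by 0.33 (SE 0.15) and Pcsk6 by 0.35 (SE 0.22). Of 16 matrix substrates all were measured, and 15 were below 0, where 40% of all features were. The median of the 16 was -0.12, and 0 had an unadjusted p below 0.05. Acan, the aggrecan core protein, was the exception at 0.36 (SE 0.20), and tenascin Tnc differed by -0.59 (SE 0.34). The score of the 16 genes read 0.10, -0.46 and 0.04 on mutants 1 to 3, against 0.27, 0.10 and -0.06 on controls 1 to 3. Mutant 2 was the lowest array.

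Likeness of pattern was described as Pearson's r of log2 signal over the 6 arrays with 143 measured genes of the fixed lists, without a test. Cell type marker scores differed between the 6 arrays, and their part in these values was not tested. Mmp14 ran closest to the fibroblast and T cell surface marker Thy1, with r = 0.99 over all 6 arrays and 0.99 without control 1 and mutant 2, followed by the endothelial gene Robo4 (0.99, or 0.73). Mmp11 also ran closest to Thy1 (r = 0.97, or 0.86 without those 2 arrays), followed by the mannose receptor Mrc1 (0.97, or 0.99). Mmp23 followed Mmp15 (0.97, or 0.90) and Postn, the periosteal matrix protein periostin (0.97, or 0.97). Mmp10 followed Postn (0.94, or 0.87) and Mmp15 (0.94, or 0.99). Mmp3 followed Cd14, a receptor of monocytes and macrophages (0.94, or 0.74), and the osteoclast gene Atp6v0d2 (0.92, or 0.73). For Mmp2 and Mmp16 the highest values were lower, 0.84 (or 0.87) with Pcsk5 for Mmp2 and 0.79 (or 0.60) with Foxc1 for Mmp16. Their next genes were Reck for Mmp2 (0.82, or 0.91) and Creb5 for Mmp16 (0.79, or 0.58). Among the members themselves, Mmp11 and Mmp14 ran most alike (r = 0.96), then Mmp11 and Mmp23 (0.93) and Mmp10 and Mmp23 (0.90), whereas Mmp2 and Mmp16 had r below 0 with every other member.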

How the data were processed

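Tibial cartilage RNA of 3 mutant and 3 control mice, 100 ng each, was hybridised to 1-colour Agilent arrays. Per the labels' protocols the dye was Cy3, while another label field names Cy5. Feature Extraction 10.7.1.1 is named in the submitters' processing notes. Per the file headers, the deposited spot values are intensity readings with no scaling between arrays, and the design refers to mm9. The authors' deposited table, an alternative here, is a linear ratio to each array's 75th percentile, as its values show (column medians 0.094 to 0.104); no source used here gives its steps.

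Log2 processed signals were taken relative to the 75th percentile of non-control spots, without outlier spots. Probes well above background on at least 3 of 6 arrays were kept, and the brightest stood for its gene, named by accession through RefSeq genes of GRCm38.p6. limma 3.58.1 (R 4.3.3, two-sided, 6.42 total degrees of freedom) gave SEs, intervals and Benjamini-Hochberg adjusted p-values over 25494 features, with a threshold of 0.05, and was tested on simulated data. The second Mmp11 probe comes from a fit of every passing probe. Levels of different probes are not comparable.

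Deviations of same-numbered mice correlated at 0.21, 0.06 and -0.16, so numbers were not taken as pairs. Any member, metalloproteinase or inhibitor, up to 4 genes of each other list by smallest p, and the 2 most alike genes per member could be named. Genes named outside this rule include Furin, Calcr and Col2a1. Members and lists were chosen with earlier results of these data known. Alternatives were other background corrections, scalings, filters, probe choices, array weights, the replicate block and subsets of arrays.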

Additional observations from a re-analysis of the deposited data

How the results depend on the processing

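Across 19 alternative settings the 7 measured members gave 133 differences, of which 13 changed sign and 0 passed an adjusted p of 0.05 (smallest 0.285). Mmp2 and Mmp3 kept their sign in all settings. Settings that changed only the filter, probe choice or replicate block could not change the difference of a gene with 1 probe. Without mutant 2 the differences were 0.042 for Mmp11, 0.071 for Mmp14 and 0.12 for Mmp23, and 3 of 7 members were below 0. Without control 1 and mutant 2 together they were 0.32 for Mmp10, 0.13 for Mmp11, 0.11 for Mmp14 and 0.33 for Mmp23, 2 of 7 members were below 0, and the median of all features was -0.023. With array weights Mmp14 stood at 0.014 and Mmp23 at 0.17, and 4 features (1 higher and 3 lower, none of them a member) were called, against 0 otherwise. On the first row of the slide Mmp14 stood at 0.049 and Mmp23 at 0.23. Mmp16 stood at 0.13 without mutant 1, and Mmp23 at 0.040 without control 1. The cause of these turns was not tested. With single mice left out, between 3 and 6 members were below 0, their median ran from -0.35 to 0.042, the Adam10 difference from -2.24 to -1.24 and the median of all features from 0.011 to 0.066, with 0 features called. The same refits gave -0.36 to 0.042 for Mmp11, -0.32 to 0.071 for Mmp14, -0.38 to 0.13 for Mmp16 and -0.41 to 0.12 for Mmp23. With the replicate block the members' median was -0.18, Mmp3 had an unadjusted p of 0.0242 and an adjusted p of 0.985 in limma, and no call changed. Unadjusted limma p for Mmp3 was also below 0.05 with normexp correction under both scalings (0.0316 and 0.0246) and without mutant 1 (0.0399). The same held for Mmp16 and Mmp2 with array weights (0.0309 and 0.0317) and for Mmp10 without control 3 (0.0337). Mmp12 and Mmp19 had values only without a filter on dim probes. Their signals at background allow no fold.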
